A study of Drosophila melanogaster with 16 samples.

Results

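The lateral posterior neurons (LPN) are a small group of clock neurons in the Drosophila brain that make the neuropeptide allatostatin A, encoded by AstA. They were selected on the measured counts of AstA and kn from a single-cell RNA series: a cell was taken as an LPN cell if AstA reached 50 of every 10000 of its UMIs (unique molecular identifiers, each counted as 1 captured transcript) and if it held at least 1 UMI of kn, a COE-family transcription factor gene. The rule took 569 of 23921 cells, or 2.38%. They were set against 10407 other clock neurons, defined as all remaining cells with at least 4 UMIs of Clk, per, tim and cwo together, and 12945 cells fell in neither population.

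All cells came from brains of flies of 1 genotype, Clk856-GAL4 with the split driver R11B03-AD;VT002670-DBD over UAS-EGFP. There was no treated or mutant group, and the libraries differed in time of day and in collection date. Equal numbers of males and females were kept in alternating light and dark and collected every few hours at 6 times, from ZT02 to ZT22, where ZT is the number of hours after lights on. GFP-positive cells were sorted and sequenced by a droplet method, and the dissection saline held blockers of neuronal activity. The drivers label several clock cell classes and some other cells, so an LPN cell is known here by its transcripts and not by its position.

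The circadian clock of each such neuron is a transcription loop. CLOCK and CYCLE, encoded by Clk and cyc, switch on per, tim, vri, Pdp1 and cwo, and the proteins made from these genes act back on CLOCK-CYCLE or on Clk itself. LPN are known as a peptide-releasing part of the clock network that is tied to sleep. Their peptides act through G protein-coupled receptors on other neurons, and many peptide and amine receptors on the cell surface in turn feed into cAMP and cGMP.

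The 10 libraries held 3518519 to 32385361 UMIs, and LPN cells made up 0.713% to 3.99% of the cells of a library. ZT02 replicate 1 held 3 LPN cells and was left out. The 9 libraries used held 7 to 101 LPN cells with 116218 to 1165939 UMIs, summed per library. ZT14 replicate 1, with 7 LPN cells, was the thinnest of them. ZT06, ZT14 and ZT22 had 2 libraries each, and ZT02, ZT10 and ZT18 had 1 each. Between libraries 55 cell barcodes were shared, of which 2 belonged to LPN cells and 0 to LPN cells of 2 libraries. Median depth was 11777 UMIs per cell in LPN cells and 6358 in other clock neurons. The share of cells taken as other clock neurons was 24.9% to 65.0% over the libraries. On one collection date it was 24.9% at ZT02 and 65.0% at ZT14, and on another 45.6% at ZT02 and 49.9% at ZT14. The part of this share in the comparisons below was not tested.

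Few cells with a kn UMI lay near the AstA limit, a value that the rule itself used. Among the 569 LPN cells AstA ranged over 50.6 to 642 UMIs per 10000, with a median of 244 and quartiles at 186 and 343. The 3 LPN cells nearest the limit stood at 50.6, 67.6 and 70.1, and the 3 kn cells just outside it at 47.6, 46.0 and 43.7. Of all 1299 cells with a kn UMI, 703 had no AstA UMI. Summed per library, AstA stood at 289 at ZT02, 344 and 378 at ZT06, 373 at ZT10, 205 and 195 at ZT14, 182 at ZT18 and 226 and 225 at ZT22. The 4 libraries of ZT02 to ZT10 lay above the 5 of ZT14 to ZT22. AstA chose the cells and was not tested. With the limit at 25 or at 100 in place of 50 per 10000, 355 and 354 genes were called rhythmic, against 355 as reported below.

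The label was set beside genes the rule did not use. Sox102F and unc-4 were listed as LPN markers with earlier results of these data known, so they are not an independent check. Sox102F, a SoxD transcription factor gene, was detected in 523 LPN cells (91.9%) and unc-4, a homeobox gene, in 458 (80.5%), and only 27 cells held neither. In the 12945 cells outside both populations, at a median of 3785 UMIs, Sox102F was detected in 20.9% and unc-4 in 0.394%. Of LPN cells, 509 also held at least 4 UMIs of the 4 clock genes, which was not asked of them. Pan-neuronal markers summed to 57.5 to 72.5 per 10000 in LPN cells and 52.5 to 69.8 in other clock neurons. Glial markers summed to 0.258 to 1.25 in LPN cells, with repo at 0 and 8 of 9 markers detected, against 2.89 to 13.9 in other clock neurons. Hemocyte and fat body markers reached at most 0.0979 in LPN cells, with srp, Fbp1 and Lsp2 at 0, and photoreceptor markers at most 0.0612, with ninaC, trp and chp at 0. Kenyon cell markers, several of which other neurons also express, summed to 34.8 to 47.3 in LPN cells, with all 7 detected, and 23.7 to 37.6 in other clock neurons. Of these 7 genes 1 was higher in LPN cells and 4 were lower, and their part in the results was not tested.

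Against other clock neurons, LPN cells had 208 genes higher and 1895 lower (edgeR quasi-likelihood test, adjusted p under 0.05 and at least 2-fold, 9619 genes tested). The background shares were 2.16% higher and 19.7% lower. In LPN cells alone 6520 genes passed the filter of at least 20 counts and were tested. Many of the 9619 passed only with counts from other clock neurons, which weights the calls towards lower. The median log2 difference over all genes was -0.18, so values below are read against that shift. limma with voom called 809 higher and 1347 lower, a different split. AstA, kn and the 4 clock genes of the rules were not tested. Some low genes are given below as raw UMI totals. Over all libraries LPN cells held 6418635 UMIs and other clock neurons 81618599, so such totals are not levels.

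Several transcription factor genes were higher in LPN cells, as were twz and flw. unc-4 (chromosome X, 17768569 to 17778708 on dm6) stood at 2.07, 2.06, 1.99, 1.95, 1.46, 1.41, 2.23, 1.87 and 1.91 UMIs per 10000 in the 9 LPN samples, against 0.00318 to 0.0239 in other clock neurons. The lowest LPN value was far above the highest of the others, and the log2 difference was 7.54 ± 0.22 (SE, edgeR adjusted p = 1.3e-13). Sox102F (chromosome 4, 800436 to 834393) averaged 3.46 ± 0.432 in LPN cells and 0.188 ± 0.0925 in other clock neurons (SD, n = 9 each), a log2 difference of 4.48. Both unc-4 and Sox102F were listed as markers beforehand, as stated above. The same held without overlap for twz, at 4.22 to 5.75 in LPN cells and 0.249 to 0.554 in other clock neurons (log2 3.90). toy, a Pax6 gene, averaged 5.64 ± 0.606 in LPN cells and 1.0 ± 0.33 in other clock neurons (log2 2.59). Among the kinases, phosphatases and other clock regulators of the list, flw, a protein phosphatase 1 gene, was higher (log2 1.14).

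Among transmitter genes, the acetylcholine genes VAChT and ChAT were higher in LPN cells, and most of the others tested were lower. VAChT, the vesicular acetylcholine transporter, stood at 8.21 at ZT02, 7.89 and 7.30 at ZT06, 5.54 at ZT10, 4.39 and 6.08 at ZT14, 5.93 at ZT18 and 6.09 and 6.41 at ZT22 in LPN cells, against 1.95 to 3.23 in other clock neurons. No sample overlapped (log2 1.46 ± 0.08 SE, edgeR adjusted p = 7.1e-11), and ChAT, the enzyme that makes acetylcholine, was higher by log2 1.09. VGlut, the vesicular glutamate transporter, averaged 0.185 ± 0.277 in LPN cells and 13.5 ± 1.48 in other clock neurons, a log2 difference of -6.11 ± 0.32. One cell held 60 of its 135 LPN UMIs. Vmat, the vesicular monoamine transporter, had 17 UMIs over all LPN cells, and Gad1, the enzyme that makes GABA, had 3, against 2679 in other clock neurons. Of 14 transmitter and amine genes tested, 2 were higher and 9 lower, with a median of -4.97. Only 7 of them passed the filter in LPN cells alone, which weights this count and median towards lower. Of all genes 2.16% were higher and 19.7% lower.

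Of the neuropeptides other than AstA, AstC was the abundant one. AstC encodes allatostatin C (chromosome 2L, 11076165 to 11081399). It averaged 176 ± 55 UMIs per 10000 in LPN cells and 84.3 ± 19 in other clock neurons (SD, n = 9 each), and was higher in LPN cells in 9 of 9 libraries (log2 1.09 ± 0.16 SE, edgeR adjusted p = 2.8e-05). The call stood just past 2-fold and was lost without ZT06 replicate 2 (log2 0.97) and with other cells required to hold 8 clock gene UMIs (0.89). Dh44, a CRF-like diuretic hormone gene, averaged 3.75 ± 1.38 in LPN cells and 6.89 ± 0.676 in other clock neurons (log2 -0.90, under 2-fold). Of 27 other neuropeptide genes tested, 2 were higher, namely spab (log2 1.49) and the insulin-like peptide gene Ilp7, and 19 were lower, with a median of -5.59. Only 9 of the 27 passed the filter in LPN cells alone, which weights this count and median towards lower. The shares over all genes were 2.16% higher and 19.7% lower. Pdf, the peptide gene of the ventral lateral neurons, gave 119 UMIs in LPN cells and 952421 in other clock neurons. CCHa1 gave 2 and 34838, NPF 2 and 21133, CNMa 4 and 24831, and Trissin 4 and 36255. These are raw totals from populations of unlike summed UMIs, as given above.

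Dh31 stands apart, since 265 of its 359 LPN UMIs, or 73.8%, lay in 1 cell of ZT02 replicate 2. Its per-library level was 3.38 there and 0.0175 to 0.516 in the other 8 LPN samples, against a mean of 11.3 ± 7.57 in other clock neurons.

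**Figure D1:**
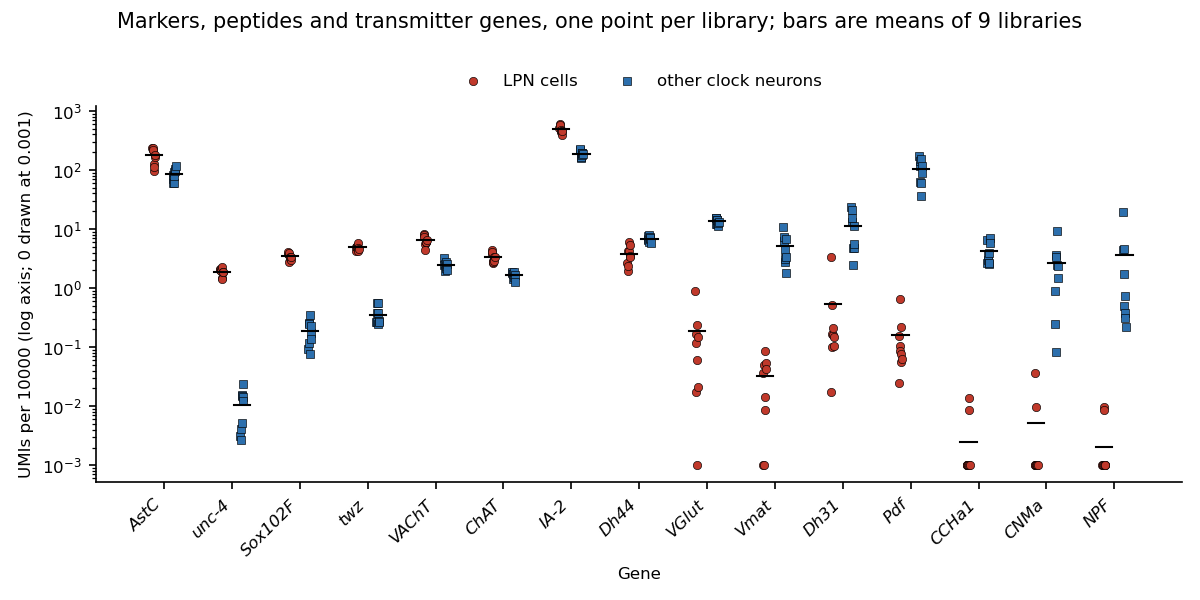
Levels of 15 marker, transmitter and peptide genes in UMIs per 10000 on a log axis, in LPN cells and in other clock neurons; each point is 1 library, bars are means of 9 libraries, and a value of 0 is drawn at 0.001. AstC, unc-4, Sox102F, twz, VAChT, ChAT and IA-2 sit higher in LPN cells, while VGlut, Vmat, Pdf, CCHa1, CNMa and NPF sit far lower.

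Of the genes for peptide processing and release, 3 of 15 differed in level. IA-2, a dense core vesicle protein, stood at 396 to 610 UMIs per 10000 in the LPN samples, against 157 to 222 in other clock neurons. The ranges did not meet (log2 1.45 ± 0.07 SE, edgeR adjusted p = 1.5e-11). Of the 15 genes 2 were higher, IA-2 and the synaptotagmin Sytalpha (log2 1.19), and 1 was lower, dimm, a bHLH gene of peptidergic cells, with 1 UMI over all LPN cells. The list's median was 0.14, beside -0.18 for all genes, of which 2.16% were higher and 19.7% lower.

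Receptor genes split in both directions. Over all genes 2.16% were higher and 19.7% lower. Of 39 peptide receptor genes tested 12 were higher and 15 lower (median -0.65). AstC-R2, a receptor for allatostatin C, averaged 5.37 ± 2.17 in LPN cells and 1.77 ± 0.463 in other clock neurons (log2 1.63, edgeR adjusted p = 4.4e-10). Others above 2-fold, chosen here after their values were seen, included Dh31-R (log2 1.90), TkR86C, a tachykinin-like receptor gene (1.89), AstC-R1 (1.66), AstA-R1, a receptor for allatostatin A (1.47), and NPFR (1.32). TrissinR averaged 0.663 ± 0.523 in LPN cells and 3.74 ± 1.43 in other clock neurons (log2 -2.42). Among 17 amine receptors 1 was higher, the serotonin receptor 5-HT7 (1.68), and 7 were lower. All 7 are receptors for octopamine, tyramine or serotonin: Octalpha2R (-4.83), Octbeta1R (-2.63), Octbeta2R (-2.35), TyrR (-2.18), Octbeta3R (-1.97), Oamb (-1.78) and 5-HT2B (-1.57). Of 29 fast transmitter and metabotropic receptors 2 were higher, the acetylcholine receptor subunit nAChRalpha7 (1.18) and the glutamate receptor mGluR (1.02). Another 7 were lower, which is near the share over all genes.

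Second messenger genes and channels showed a few strong members, where 2.16% of all genes were higher and 19.7% lower. Pde6, a cGMP phosphodiesterase, averaged 11.6 ± 1.21 in LPN cells and 2.48 ± 0.274 in other clock neurons (log2 2.30, edgeR adjusted p = 2e-12). Of the 26 NO, cAMP and cGMP genes 4 were higher, which besides Pde6 were Nos, the nitric oxide synthase (1.84), Epac, an exchange factor bound by cAMP (1.64) and the adenylyl cyclase Ac78C (1.59), and 8 were lower. Pka-C3 gave 6 UMIs in LPN cells and 6190 in other clock neurons. Of 40 ion channel genes 1 was higher and 9 were lower, beside 2.16% and 19.7% of all genes. NaCP60E, a voltage-gated cation channel, was the higher one, at 18.7 ± 6.91 in LPN cells and 4.67 ± 0.888 in other clock neurons (1.98). Among the lower ones were Cngl, a cyclic nucleotide-gated channel subunit (-2.54), and SK, a calcium-activated potassium channel (-1.24).

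Cell surface recognition genes were the other large group, where 2.16% of all genes were higher and 19.7% lower. Dpr and DIP proteins are immunoglobulin partners that bind one another, and Beat and Side proteins form a second such network. Of 32 Dpr and DIP genes 5 were higher and 12 lower (median -0.32), and of 21 Beat and Side genes 6 were higher and 5 lower (median 0.26). dpr1 averaged 6.97 ± 1.40 in LPN cells and 0.855 ± 0.166 in other clock neurons (log2 3.09), and dpr2 was higher by 2.78. beat-Ic (2.82), beat-IIIc (2.65) and beat-Ib (2.5) rose above the others, and klg, an immunoglobulin adhesion gene, averaged 29.2 ± 8.79 in LPN cells and 5.92 ± 1.28 in other clock neurons (2.33). DIP-beta (-6.53, 11 LPN UMIs), dpr8 (-3.73) and side (-3.02) were lower. The uncharacterised genes CG13053 (6.79) and CG4766 (4.24) completed the top of the list.

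Turning to time of day, a 24 h cosine and sine were fitted to the summed counts of the 9 LPN samples, and the swing of a gene is its fitted peak minus its fitted trough on the log2 scale. Of 6520 genes tested, 355 (5.44%) were called rhythmic at an adjusted p under 0.05 and a swing of at least 1. Their median swing was 1.84, and 152 swung by 2 or more. Peaks were not spread evenly: 96 genes peaked at ZT00 to ZT04, 75 at ZT04 to ZT08, 19 at ZT08 to ZT12, 37 at ZT12 to ZT16, 53 at ZT16 to ZT20 and 75 at ZT20 to ZT24. In the fits that left out 1 library each, 211 genes were called in all 9. With the collection date as a block 360 genes were called, of which 326 were shared. In other clock neurons, a mixture of many classes, 60 genes were called by the same kind of fit. Clk, per, tim and cwo were not tested there, and the count filter was applied to those cells alone. The 60 and the 355 are therefore counts from unlike sets of genes.

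**Figure D2:**
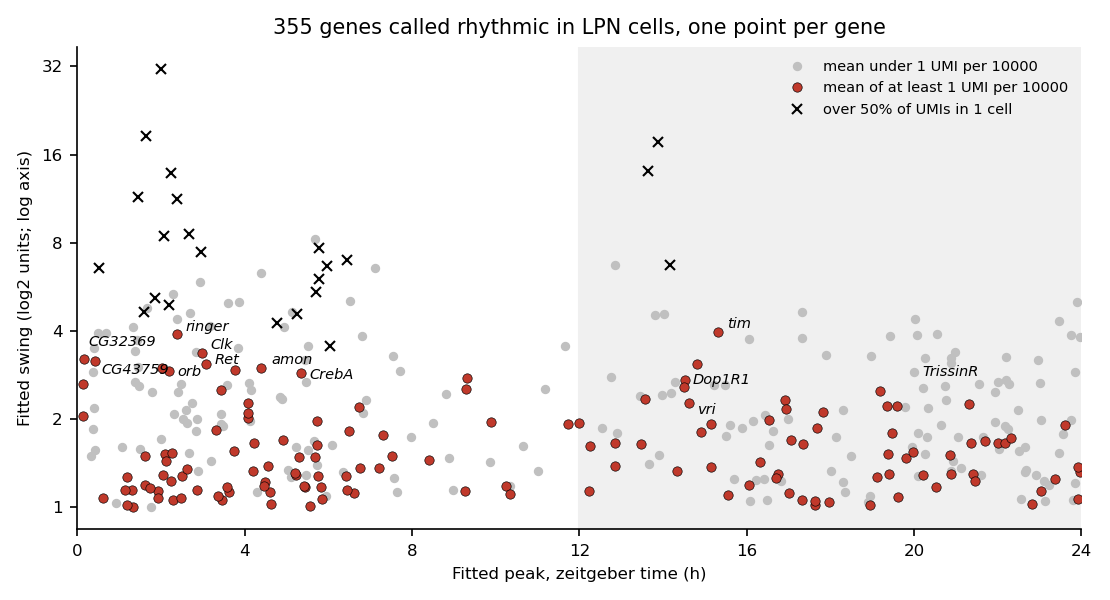
Time of peak (ZT, hours, x axis) and swing (fitted peak minus trough in log2 units, y axis, log scale) of the 355 rhythmic genes in LPN cells; grey points have a mean under 1 UMI per 10000, red points a mean of 1 or more, and crosses mark genes with over 50% of their LPN UMIs in 1 cell. The points are densest around lights on and thinnest between ZT08 and ZT12, and the widest swings belong to low genes.

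The widest swings lie in sparse genes. In 23 of the 355, over 50% of the LPN UMIs came from 1 cell, all with a mean of at most 0.534 UMIs per 10000, and those cells were in ZT02 replicate 2 (12 genes), ZT06 replicate 2 (8) and ZT14 replicate 2 (3). Dh31 was one of them: its swing of 4.63 became 0.99 without that cell. Among the 143 rhythmic genes with a mean of at least 1 per 10000, no cell held more than 8.04% of a gene's UMIs. Of the glial markers, 3 passed the count filter and 2 were called, Eaat1 (mean 0.110) and Gs2 (mean 0.0657). The summed glial level in LPN cells was 1.25 at ZT02, 0.786 and 0.722 at ZT06 and 0.258 to 0.466 in the other samples. Its part in the other rhythms was not tested.

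All but 1 of the 8 core clock genes were rhythmic in LPN cells, with a median swing of 1.80 beside 0.49 for all genes. tim, the partner of PER in the repressor (chromosome 2L, 3493986 to 3508119), stood at 0.734 at ZT02, 1.52 and 1.62 at ZT06, 8.17 at ZT10, 19.5 and 13.4 at ZT14, 13.0 at ZT18 and 4.63 and 4.40 at ZT22 in LPN cells. In other clock neurons it stood at 3.42 at ZT02, 4.83 and 5.32 at ZT06, 10.8 at ZT10, 18.1 and 18.4 at ZT14, 16.1 at ZT18 and 8.16 and 7.94 at ZT22. The ZT02 and ZT06 levels were lower in LPN cells, while the ZT14 levels of the populations overlapped. The swing was 3.98 in LPN cells (3.63 to 4.30 over the alternatives, edgeR adjusted p = 3.4e-11), with a peak at ZT15.3, and 2.26 in other clock neurons, where tim was part of the gate, so its level there is partly set by the choice of cells and was not tested.

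Clk (chromosome 3L, 7763233 to 7775603) ran in the opposite phase. In LPN cells it stood at 3.39 at ZT02, 3.63 and 3.52 at ZT06, 0.880 at ZT10, 0.516 and 0.335 at ZT14, 0.939 at ZT18 and 1.70 and 1.95 at ZT22, and in other clock neurons at 0.678 to 3.29. Its swing in LPN cells was 3.36 with a peak at ZT03.0 (adjusted p = 4.3e-09). vri, a repressor of Clk, stood at 2.29 at ZT02, 4.17 and 4.67 at ZT06, 13.2 at ZT10, 15.2 and 14.4 at ZT14, 12.5 at ZT18 and 6.49 and 6.92 at ZT22, and the samples of ZT10 to ZT18 did not overlap the rest. Its swing was 2.28 in LPN cells and 2.25 in other clock neurons. per swung by 1.98 around ZT16.5, at 0.489 to 0.72 in the ZT02, ZT06 and one of the ZT22 samples and at 2.79 at ZT18.

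cwo, a transcriptional repressor, peaked earlier, at ZT12.3, with 6.67 at ZT10 and 2.19 and 2.26 at ZT22 (swing 1.62). Pdp1, an activator of Clk, was the most abundant clock gene by UMIs, with 55.2 at ZT02 and 208 and 159 at ZT14 (swing 1.43). Its swing was 2.0 in other clock neurons, and the rhythms differed (edgeR adjusted p = 7e-05), although not without the library block. cry, the blue light receptor, was low in LPN cells, at 0.642 ± 0.376 against 2.09 ± 0.793 in other clock neurons (log2 -1.86, lower in 8 of 9 libraries). It was called rhythmic with a peak at ZT20.3 (swing 1.52, edgeR adjusted p = 0.0063), but not in cells of at most 15000 UMIs (1.07), and in other clock neurons its fitted peak was at ZT03.6. cyc stood at 0 to 0.298 and was not called (swing 0.44, adjusted p = 0.89). tim, per and cry overlap exons on the opposite strand, and whether the counting used strand is not given in the sources used here.

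**Figure D3:**
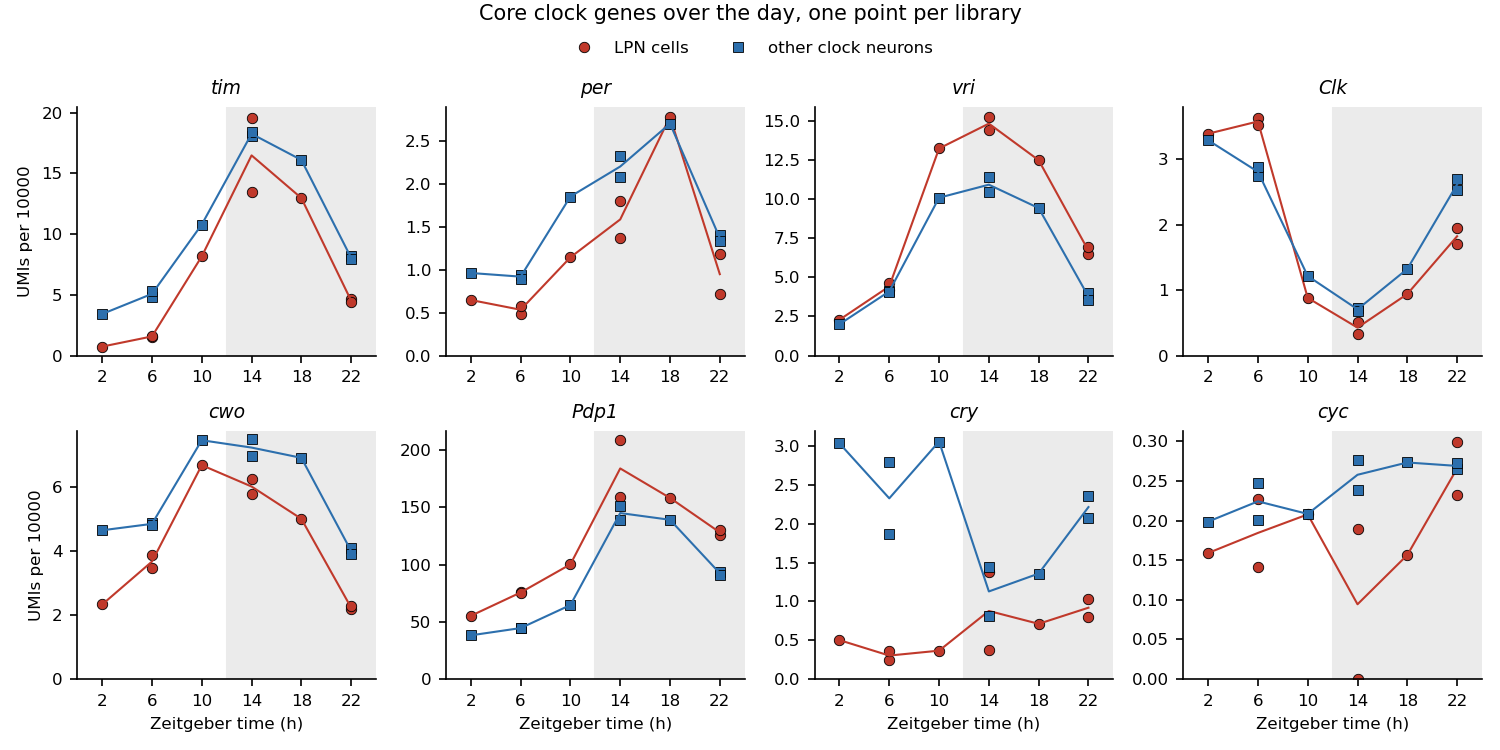
Levels of tim, per, vri, Clk, cwo, Pdp1, cry and cyc in UMIs per 10000 (y axis) against ZT in hours (x axis, night shaded) in LPN cells and other clock neurons; each point is 1 library and lines join the means per time. tim falls to 0.734 in LPN cells at ZT02, against 3.42 in other clock neurons, and Clk peaks by day in both. Clk, per, tim and cwo chose the other clock neurons, so their levels there are partly set by that choice.

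AstC levels in LPN cells were higher by day than by night. AstC stood at 237 at ZT02, 221 and 236 at ZT06, 217 at ZT10, 96.5 and 124 at ZT14, 113 at ZT18 and 164 and 176 at ZT22 in LPN cells, against 82.6 at ZT02, 70.7 and 59.1 at ZT06, 91.1 at ZT10, 61.1 and 79.5 at ZT14, 96.7 at ZT18 and 104 and 115 at ZT22 in other clock neurons. The 4 LPN samples of ZT02 to ZT10 lay above all later ones, with a swing of 1.34 around ZT04.2 (edgeR adjusted p = 3.2e-06). In other clock neurons the swing of 0.67 was not called. amon (chromosome 3R, 26697697 to 26714159) encodes prohormone convertase 2, which cuts peptides out of their precursors.

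amon swung further than AstC. It stood at 24.2 at ZT02, 22.2 and 20.7 at ZT06, 10.8 at ZT10, 2.32 and 4.20 at ZT14, 4.69 at ZT18 and 7.68 and 5.82 at ZT22 in LPN cells, against 5.02 to 12.4 in other clock neurons. In LPN cells the ZT02 and ZT06 samples stood apart from all others, with a swing of 2.98 (2.79 to 3.34 over the alternatives, adjusted p = 5.5e-10). The swing in other clock neurons was 1.11 and also peaked near ZT04. Of 14 processing genes tested 4 were called, with a median swing of 0.45, beside 5.44% and 0.49 for all genes. Fur1, Fur2 and Sytalpha were just past the limit at 1.03, 1.06 and 1.03.

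Dh44 moved the other way. In LPN cells it stood at 2.64 at ZT02, 1.92 and 2.38 at ZT06, 4.16 at ZT10, 6.11 and 4.27 at ZT14, 5.36 at ZT18 and 3.54 and 3.37 at ZT22, against 5.85 to 7.87 in other clock neurons. Its swing was 1.19 with a peak at ZT16.1 (edgeR adjusted p = 0.00016). spab was called as well (1.15, peak ZT01.1), and Hug was called on few UMIs. Beside 5.44% of all genes, 2 of 7 transmitter genes were called, Tbh (mean 0.181) and VGlut, whose call was lost in 12 of 22 alternatives. Neither VAChT nor ChAT was among them.

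Among receptor genes, beside the 5.44% of all genes, 15 of 27 peptide receptors (median swing 1.16) and 8 of 15 amine receptors (1.24) were called. AstC-R2 was the most abundant of those named here, at 5.69 at ZT02, 2.92 and 3.04 at ZT06, 3.55 at ZT10, 5.08 and 4.38 at ZT14, 6.60 at ZT18 and 8.35 and 8.76 at ZT22. It was lowest at ZT06 and ZT10 and highest at ZT22, with a fitted peak at ZT20.9 (swing 1.51, edgeR adjusted p = 2.8e-07). AstA-R1 swung by 2.22 and AstC-R1 by 1.36, with peaks at ZT19.6 and ZT21.1.

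TrissinR, the receptor for the peptide trissin, stood at 1.15 at ZT02, 0.192 and 0.271 at ZT06, 0.346 at ZT10, 0.0860 and 0.326 at ZT14, 0.925 at ZT18 and 1.51 and 1.16 at ZT22 in LPN cells. The ZT18, ZT22 and ZT02 samples were all above the rest (swing 2.72, edgeR adjusted p = 1.4e-06). The myosuppressin receptor MsR2 (2.66) peaked at ZT23.0 and the corazonin receptor CrzR (2.35) at ZT04.9. Pdfr, the PDF receptor, was just past the limit (1.02, peak ZT01.2).

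Dopamine receptors differed in phase. Dop1R1 stood at 0.550 at ZT02, 0.576 and 0.516 at ZT06, 2.13 at ZT10, 2.5 and 2.71 at ZT14, 2.23 at ZT18 and 0.936 and 0.656 at ZT22, a swing of 2.58 with a peak at ZT14.5 (edgeR adjusted p = 2.9e-08). The 4 samples of ZT10 to ZT18 lay above all others. DopEcR (1.28) peaked at ZT05.8 and Dop1R2 (1.23) at ZT02.2. Of the octopamine receptors, Octbeta2R stood at 1.99 at ZT02, 0.0692 at ZT10 and 1.32 and 0.910 at ZT22. It peaked at ZT24.0 (swing 3.83), although DESeq2 did not call it. A single cell of ZT02 replicate 2 held 46 of its 417 LPN UMIs, or 11.0%. Oamb peaked at ZT23.8 (3.89, mean 0.192). Beside 5.44% of all genes, 3 of 24 fast receptor genes were called. nAChRalpha1 was one, at 6.03 at ZT02, 6.16 and 6.41 at ZT06, 4.81 at ZT10 and 3.22 to 3.70 in the later samples (swing 1.17).

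Cyclic nucleotide and nitric oxide genes were rhythmic in 9 of 19 cases, with a median swing of 0.89, beside 5.44% and 0.49 for all genes. Pka-R1, a regulatory subunit of cAMP-dependent protein kinase, stood at 11.4 at ZT02, 15.5 and 16.6 at ZT06, 16.4 at ZT10, 6.02 and 6.21 at ZT14, 6.23 at ZT18 and 6.47 and 5.29 at ZT22. It was high in the 4 day samples and flat through the night (swing 1.82, peak ZT06.5, edgeR adjusted p = 1.2e-07). Nos ran opposite, at 2.07 at ZT02, 0.611 and 0.851 at ZT06, 1.1 at ZT10, 3.18 and 2.30 at ZT14, 3.46 at ZT18 and 3.79 and 2.81 at ZT22 (swing 2.22). The phosphodiesterase genes dnc (1.54), Pde9 (1.15) and Pde1c (1.1) peaked between ZT01.3 and ZT03.4, and the adenylyl cyclases Ac13E (3.25) and Ac78C (1.37) at ZT22.2 and ZT07.2.

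The 30 ion channel genes tested had a median swing of 0.35, against 0.49 for all genes. Of these 3 were called, beside 5.44% of all genes. NaCP60E was the abundant one. It stood at 18.5 at ZT02, 11.2 and 8.56 at ZT06, 9.99 at ZT10, 22 and 22.9 at ZT14, 25.9 at ZT18 and 24.5 and 24.4 at ZT22 in LPN cells. The 3 samples of ZT06 and ZT10 were below all others (swing 1.53, peak ZT19.4, edgeR adjusted p = 1e-06). CngA (2.63) and TrpA1 (1.74) were low.

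**Figure D4:**
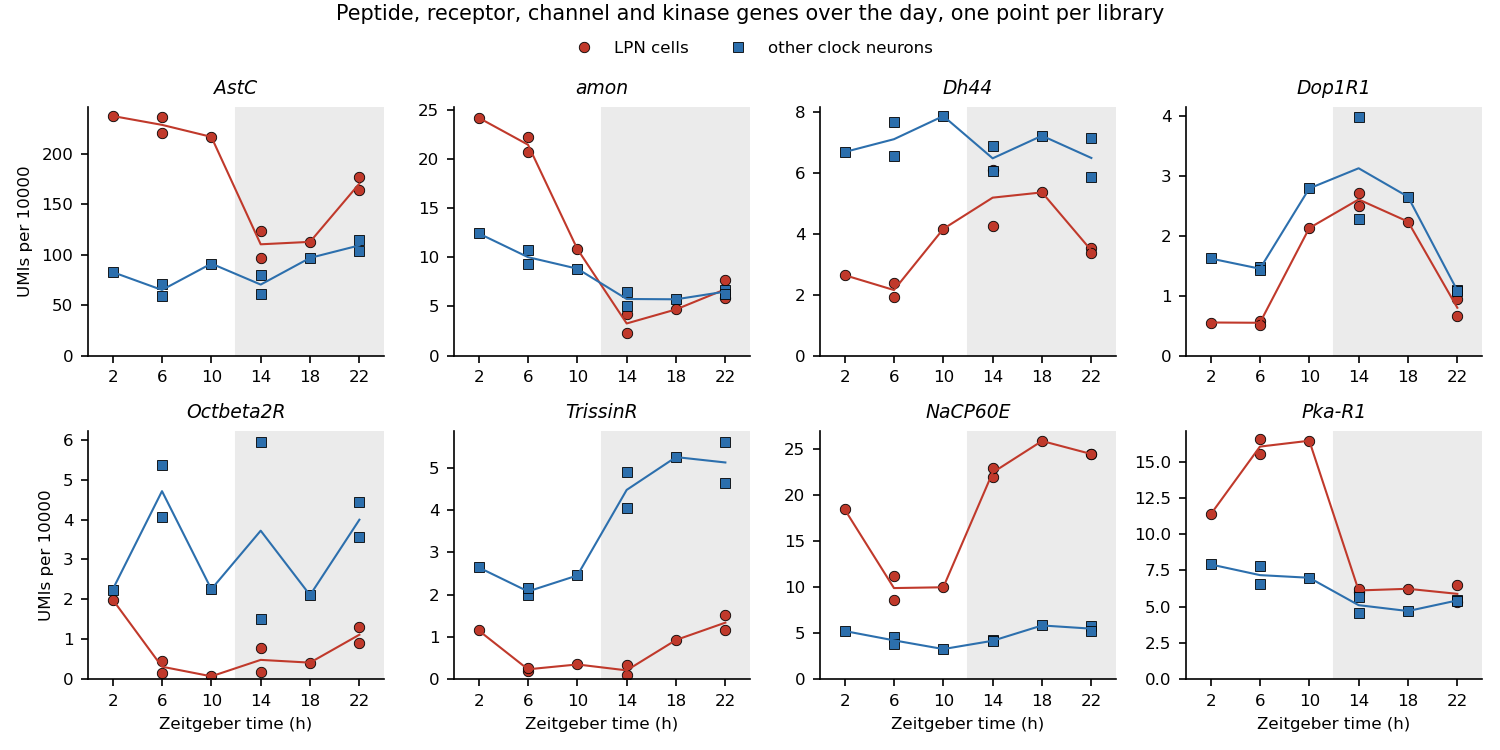
Levels of AstC, amon, Dh44, Dop1R1, Octbeta2R, TrissinR, NaCP60E and Pka-R1 in UMIs per 10000 (y axis) against ZT in hours (x axis, night shaded) in LPN cells and other clock neurons; each point is 1 library and lines join the means per time. AstC, amon and Pka-R1 are high by day in LPN cells, Dop1R1 and Dh44 around ZT14, and TrissinR and Octbeta2R around lights on.

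Surface recognition genes were called in 6 of 25 Dpr and DIP genes (median swing 0.78) and 5 of 21 Beat and Side genes (0.75). Over all genes 5.44% were called, with a median swing of 0.49. dpr12 was by day (1.18, peak ZT05.8), dpr10 at lights on (2.06, ZT00.1), and DIP-theta (2.12, ZT17.8), beat-IV (2.33, ZT16.9), beat-VI (1.31, ZT19.4) and side-III (1.65, ZT21.4) by night. Of 14 kinases and other clock regulators 2 were called, flw (1.19) and nmo, a kinase gene (1.13), and nmo was not called without ZT02 replicate 2 (0.96). By edgeR, and likewise by DESeq2 and voom, 0 of 15 heat shock genes, 0 of 81 ribosomal protein genes and 0 of 5 pan-neuronal markers were called, with 2 heat shock, 0 ribosomal and 2 pan-neuronal genes at an unadjusted p under 0.05. sr, Hr38, CG14186 and CG17778, genes induced by neuronal activity, were not called, with adjusted p of 0.29 to 0.56, although Hr38 (swing 1.18) and CG14186 (1.34) were called without ZT18 replicate 1. Sox102F and unc-4 swung by 0.42 each and were not called.

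Among abundant genes ringer, a microtubule-associated gene (chromosome 3L, 16354746 to 16359428), had a swing close to that of tim. It stood at 10.8 at ZT02, 10.6 and 9.54 at ZT06, 1.15 at ZT10, 0.258 and 1.31 at ZT14, 2.10 at ZT18 and 5.58 and 6.88 at ZT22 (swing 3.91, peak ZT02.4). CG15628 was in the opposite phase, at 4.51 at ZT02, 5.83 and 6.39 at ZT06, 21.4 at ZT10, 39.1 and 39.6 at ZT14, 26.9 at ZT18 and 10.2 and 9.99 at ZT22 (3.08, edgeR adjusted p = 9.7e-14). No sample of ZT10 to ZT18 overlapped the rest.

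The remaining genes of wide swing with a mean of at least 1 per 10000 mostly peaked near lights on: CG32369 (3.20), CG43759 (3.15), stan, an atypical cadherin (2.64), CG11317 (2.99), orb, an RNA-binding protein of the CPEB family (2.92), the receptor tyrosine kinase Ret (3.10), and CG6330 (2.94) all peaked at ZT00.1 to ZT03.8. CrebA, a bZIP factor of the secretory pathway, peaked at ZT05.4 (2.89), with 2.79 and 2.04 at ZT06 and 0.189 and 0.774 at ZT14. Sidpn, a bHLH gene related to deadpan, was highest at ZT10, with 3.35, and peaked at ZT09.3 (2.76). MYPT-75D, a regulator of myosin phosphatase, peaked at ZT14.5 (2.71).

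To ask where the LPN rhythm itself differed, the LPN-to-other ratio was tested for a 24 h pattern within libraries, and the value given is the swing of that ratio over the day. edgeR called 488 of 9619 genes (5.07%). This count depends on the tool: DESeq2 called 212, limma with voom 176, and the fit without the library block 65. The share of cells that passed the gate on the other clock neurons varied between libraries, as given above, and requiring 8 clock gene UMIs in place of 4 gave 539. A gene that was not called may still differ in rhythm between the populations.

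The genes with the lowest p included AstC (ratio swing 1.68), described above, and CG15537. CG15537 stood at 9.12 at ZT02, 19.0 and 20.4 at ZT06, 28.4 at ZT10, 14 and 15.9 at ZT14, 7.98 at ZT18 and 5.58 and 2.92 at ZT22 in LPN cells, against 12.3 at ZT02, 7.47 and 8.52 at ZT06, 10.8 at ZT10, 12.6 and 9.96 at ZT14, 13.0 at ZT18 and 13.1 and 12.3 at ZT22 in other clock neurons. It was above the other clock neurons from ZT06 to ZT14 and below them at ZT18, ZT22 and ZT02, with a ratio swing of 3.26. The next were ringer (3.03), CG11317 (3.05), the kinase gene Dyrk2 (2.52), CG33639 (2.66) and wry (2.43). These 7 were called in all 23 alternatives with ratio swings of 1.57 to 3.75. CG2016, CG4716 and CG33299 were also among the 10 lowest p, but over 50% of the LPN UMIs of each lay in 1 cell.

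Of the signalling genes, amon (1.95), Dh44 (1.23), Ac13E (2.73), AstA-R1 (2.61), CrzR (3.30), Dop1R2 (1.95) and CG15628 (1.87) were called in all 23 alternatives as well. NaCP60E (1.02) and Pka-R1 (1.28) were called in all but the fit without the block. TrissinR (2.01), Nos (1.82), Dop1R1 (1.11) and Octbeta2R (3.31) were each lost with DESeq2 and without the block. vri (0.41) and cyc were not called.

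LPN cells fell into 2 subsets by Dop2R, a dopamine receptor gene. At a limit of 15 per 10000, 376 cells were Dop2R-high and 193 Dop2R-low, so 66.1% were high (95% exact interval 62.0% to 70.0%, counting error only), and 62.2% to 70.3% in the 8 libraries used for this comparison. Medians were 82.9 in Dop2R-high cells and 1.42 in Dop2R-low cells, and no cell lay between 14.8 and 21.2. Median depth was 11593 UMIs in high and 12566 in low cells. Dop2R chose the subsets and was not tested. ZT14 replicate 1, with 2 low cells, was left out.

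Dop2R-high cells had 161 genes higher (2.48% of 6505) and 85 lower (1.31%) by edgeR at 2-fold. igl, a calmodulin-binding protein gene, stood at 25, 25.1, 28.9, 25.2, 23.0, 19.2, 24.4 and 24.8 UMIs per 10000 in the 8 Dop2R-high samples, against 0.932 to 4.51 in Dop2R-low samples (log2 3.60). pHCl-1, a chloride channel gated by pH, averaged 7.71 ± 2.86 in high and 0.270 ± 0.21 in low cells (4.90), and mGluR 4.66 ± 0.569 in high and 0.676 ± 0.339 in low cells (2.81). None of these overlapped between subsets. Also higher were beat-IV (5.44), Ac78C (5.39), CG43795 (3.54), Ktl (3.05), Nos (2.71), Pxn (2.56) and wry (2.5). Dh31 was also called higher, with 344 UMIs in high and 6 in low cells, most of them from the cell named above.

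Receptor and surface genes were called in both directions, beside 2.48% of all genes higher and 1.31% lower. Of 27 peptide receptors 11 were higher in Dop2R-high cells and 3 lower (median 0.70, against 0.015 for all genes). Among the higher were MsR1 (3.71), SIFaR (3.10), MsR2 (3.10), Dh44-R1 (3.05), Dh31-R (2.25) and NPFR (1.96), and lower were SPR, the sex peptide receptor gene, at 0.317 in high and 2.04 in low cells (-2.38), AstC-R1 (-1.08) and hec, with 0 UMIs in high and 44 in low cells. Dop1R2 (2.46) and 5-HT7 (1.74) were higher, and 5-HT1A (-1.12) and 5-HT2B (-2.80) lower. Of the Dpr and DIP genes 6 were higher and 1 lower of 25, and of the Beat and Side genes 4 were higher and 4 lower of 21. beat-VII stood at 7.56 to 9.14 in high and 1.37 to 2.41 in low cells (2.18), and side-II at 0.404 to 1.06 in high and 3.23 to 5.04 in low cells (-2.69). The study had already named both genes, and Dop2R, as differing between its LPN clusters. Its main text puts beat-VII and Dop2R higher in the smaller cluster and side-II higher in the larger. Its supplementary figure legend gives the reverse. Here the Dop2R-high cells, with beat-VII higher, were the larger subset.

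The other genes lower in Dop2R-high cells by the largest folds were Sulf1, a heparan sulfate sulfatase (-3.75), CG13053 (-3.10), kirre, an adhesion gene (-2.61), Con, a leucine-rich repeat adhesion gene (-2.28), luna (-1.79), Ccn (-1.70), eys (-1.69) and Eip93F, an ecdysone-induced transcription factor gene (-1.48). cry averaged 0.207 in high and 1.17 in low cells (-2.35). Sox102F, unc-4, AstC, Dh44 and VAChT did not pass, with log2 differences of -0.05, -0.10, -0.12, -0.24 and -0.28 in that order, while CG13053 and Ktl, both higher in LPN cells than in other clock neurons, did. Of 9 neuropeptide genes and 7 transmitter genes in those lists, 0 were called in either direction by edgeR, DESeq2 or voom, and 3 and 2 had an unadjusted p under 0.05.

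The rhythms of the subsets were compared in the same way, as the swing of the high-to-low ratio. edgeR called 73 of 6505 genes (1.12%), DESeq2 11, limma with voom 56, and the fit without the library block 18. dpr9 (chromosome 3R, 15054930 to 15077206) had the lowest p. It stood at 8.25 at ZT02, 7.84 and 7.06 at ZT06, 7.80 at ZT10, 18.5 at ZT14, then 17.6 at ZT18 and 13.2 and 13.9 at ZT22 in Dop2R-high cells, against 3.01 at ZT02, 5.33 and 4.09 at ZT06, 3.09 at ZT10, 1.36 at ZT14, then 1.40 at ZT18 and 2.06 and 2.79 at ZT22 in Dop2R-low cells. It was high by night in Dop2R-high cells and high by day in Dop2R-low cells, with a ratio swing of 3.21 (edgeR adjusted p = 6.1e-15).

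Eip93F differed in range between the subsets. It stood at 10.3 at ZT02, 7.69 and 9.36 at ZT06, 2.32 at ZT10, 2.34 at ZT14, then 2.90 at ZT18 and 5.23 and 7.04 at ZT22 in Dop2R-high cells, against 11.6 to 17.7 in Dop2R-low cells (ratio swing 2.16). jeb, the ligand of the receptor Alk, was high in the morning in both. It stood at 30.9 at ZT02, 9.28 at ZT14 and 14.7 and 16.8 at ZT22 in Dop2R-high cells, against 51.9 at ZT02, 10.2 at ZT14 and 6.39 and 7.44 at ZT22 in Dop2R-low cells (2.04).

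side-III, an immunoglobulin receptor gene, shared a high ZT02 value, with 6.98 in Dop2R-high and 10.6 in Dop2R-low cells, but by ZT22 stood at 10.6 and 10.1 in high against 2.63 and 2.26 in low cells (3.0). Pde9 stood at 9.56 and 8.59 in high against 2.14 and 2.21 in low cells at ZT22, and at 4.13 in high against 3.68 in low cells at ZT10 (1.96). CG32683 (3.24) was the next. dpr9, Eip93F, jeb, CG32683, side-III and Pde9 were called in all 19 alternatives. CG13053 (3.08), CCHa1-R (8.69, low) and SPR (3.52) were lost with DESeq2, and Stacl (1.09) without the block.

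Beside 1.12% of all genes, 3 of 30 ion channel genes were called, TrpA1 and the potassium channel genes SK and Hk. SK stood at 2.23 to 3.54 in the Dop2R-high samples and at 2.92 at ZT02, 4.19 and 3.24 at ZT06, 5.63 at ZT10, 9.30 at ZT14, then 7.76 at ZT18 and 4.0 and 5.52 at ZT22 in Dop2R-low samples (ratio swing 1.57, edgeR adjusted p = 2.2e-05), and DESeq2 did not call it. Hk, a subunit of the Shaker channel, was called by edgeR (1.03) but lost in 5 of 19 alternatives. TrpA1, a heat-gated cation channel (4.80), was lost in 2 of the 19. A gene that was not called is not thereby shown to have the same rhythm in both subsets. amon (1.60) was called in all but the fit without the block. vri (1.01) was lost in 5 alternatives, and tim (0.01), per (0.47) and Pdp1 (0.13) were not called. By edgeR within each subset, 293 of 6128 genes were rhythmic in Dop2R-high cells and 209 of 5383 in Dop2R-low cells, with 125 shared, which is 42.7% of the high and 59.8% of the low list.

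**Figure D5:**
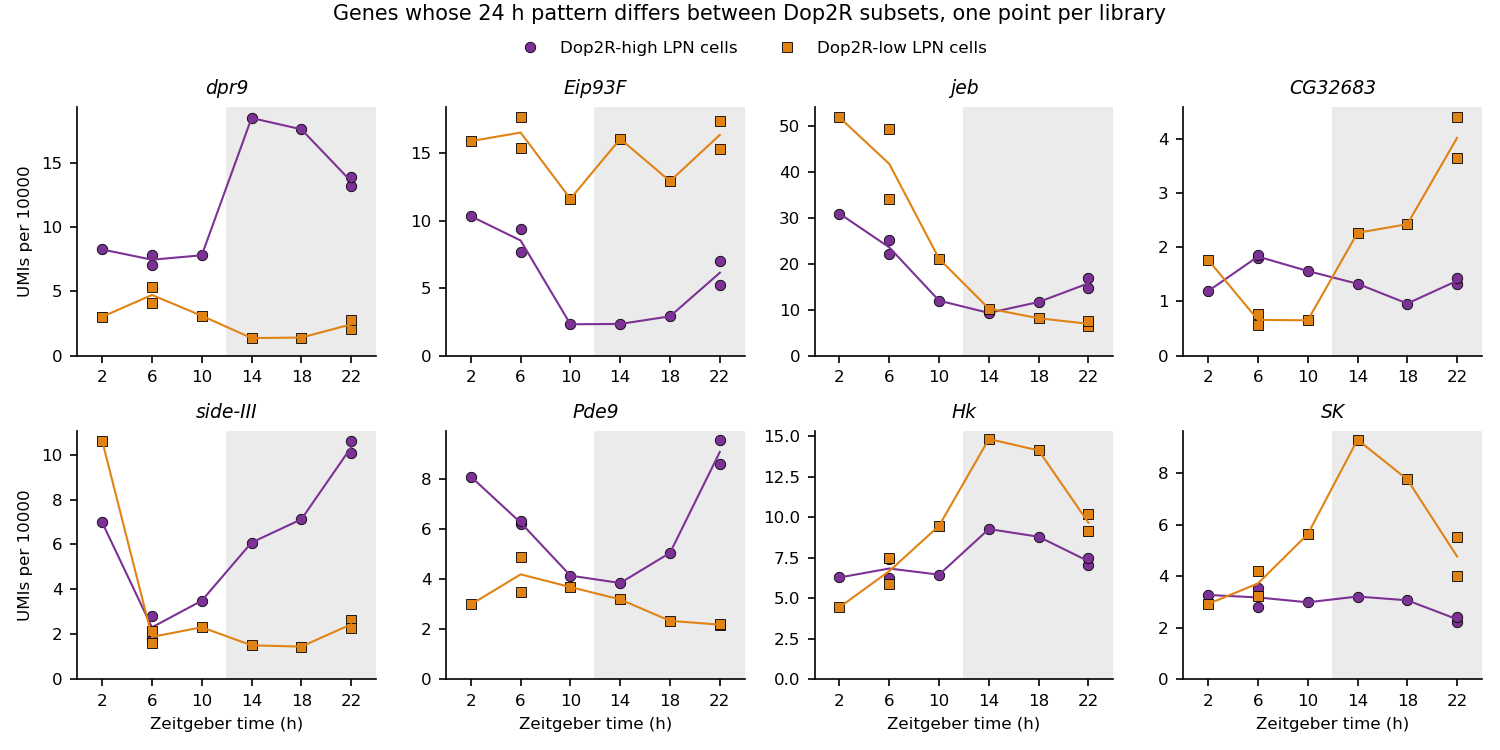
Levels of dpr9, Eip93F, jeb, CG32683, side-III, Pde9, Hk and SK in UMIs per 10000 (y axis) against ZT in hours (x axis, night shaded) in Dop2R-high and Dop2R-low LPN cells; each point is 1 of 8 libraries and lines join the means per time. dpr9 is highest at ZT14 in Dop2R-high cells (18.5) and lowest at ZT14 in Dop2R-low cells (1.36), and SK stands at 9.30 at ZT14 in Dop2R-low cells.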

How the data were processed

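The authors deposited a table of UMI counts per gene for each single cell, made with Cell Ranger and STAR on dm6 per the submitters' processing notes (versions are not given in the sources used here), and stated that doublets were removed with Scrublet. The deposited counts were used without a further filter on cells. The maximum of 15000 UMIs per cell given in the study's methods was tried as an alternative, since 119 LPN cells lay above it. The bulk libraries and their tables were not used here. Gene positions are from the BDGP6 annotation, which shares dm6 coordinates.

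Counts of LPN cells, other clock neurons and the Dop2R subsets were summed per library. Libraries with fewer than 5 LPN cells, or fewer than 5 of either subset, were left out. Genes with at least 20 counts were fitted with edgeR 4.0.16 (TMM factors, quasi-likelihood F test, Benjamini-Hochberg adjustment over all genes tested). A 24 h cosine and sine gave the rhythm. Comparisons of populations had the library as a block, since both populations come from the same library. Genes that chose a population were not tested in its comparison. Fold changes need at least 2-fold and rhythms a swing of at least 1 on the log2 scale, with an adjusted p under 0.05, and rhythm differences an adjusted p under 0.05 alone. In the comparison of LPN rhythm with that of other clock neurons, edgeR pooled the spread of genes without limit, so its p-values there are the least certain. Levels are given as UMIs per 10000. R 4.3.3, DESeq2 1.42.0 and limma 3.58.1 gave the alternatives, and the sums and plots were made in Python 3.11.15 (pandas 2.3.3, numpy 2.4.6, scipy 1.17.1, matplotlib 3.10.9). Each fit was tested on simulated data.

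A library is the replicate. In the rhythm fit of LPN cells the p-values rest on the spread of libraries around the fitted curve. In the comparisons with the library as a block they rest on the spread of differences within libraries. In each of these edgeR borrowed part of the spread from other genes. Intervals cover counting error only. The collection dates in the titles were not taken to pair the samples, since not every pair of the same date correlated above 0.1: residuals of the 4 same-date pairs correlated at 0.0224 to 0.199 (median 0.096) over 4469 genes, against a median of -0.087 for the 32 pairs of different dates. The fit with date as a block is given as an alternative.

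Named are all genes of the core clock, LPN peptide, LPN transcription factor and activity-regulated lists, up to 5 called members of each other list, the 15 largest swings with a mean of at least 1 per 10000, the 15 largest folds each way with a mean of at least 2 and the same direction in every library (10 for the subsets), and the 10 lowest p of each rhythm comparison. Further receptor and signalling genes were chosen after their values were seen. The members and gene lists were chosen with earlier results of these data known. Other settings tried were DESeq2, limma with voom, no TMM factors, other count, AstA, kn, clock gene and Dop2R limits, leaving out each library, no block, and, added after the data were seen, leaving out each gene's highest cell, voom for the comparisons of populations, and no block for the subset rhythm.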

Additional observations from a re-analysis of the deposited data

Results flagged for a closer look

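The 24 h rhythm differed between LPN cells and other clock neurons (edgeR test of the difference) for 10 genes named by lowest p, given as the swing of the LPN-to-other ratio: CG15537 (3.26), CG2016 (17.03), ringer (3.03), CG11317 (3.05), CG4716 (4.53), AstC (1.68), Dyrk2 (2.52), CG33639 (2.66), CG33299 (47.85) and wry (2.43). The values of CG2016, CG4716 and CG33299 rest on single cells, which held 79.5%, 83.5% and 100% of the LPN UMIs of these genes.

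Between Dop2R-high and Dop2R-low LPN cells the rhythm differed, as the swing of the high-to-low ratio, for dpr9 (3.21), Eip93F (2.16), jeb (2.04), CG32683 (3.24), side-III (3.0), Pde9 (1.96), CG13053 (3.08), CCHa1-R (8.69), Stacl (1.09) and SPR (3.52). The value of CCHa1-R rests on few UMIs.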

How the results depend on the processing

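The count of rhythmic genes was 355, and 289 to 425 under the alternatives, and that of genes that differed between LPN cells and other clock neurons 2103, and 1594 to 2235. limma with voom gave 809 genes higher in LPN cells in place of 208. For the rhythm of LPN cells against that of other clock neurons, 488 genes were called, 212 with DESeq2, 176 with limma and voom, 324 with cells of at most 15000 UMIs, 65 without the replicate block, and 378 to 466 without 1 library each. For the subset rhythm 73 were called, 11 with DESeq2, 42 with at least 100 counts, 18 without the replicate block, and 41 to 73 without 1 library each, the lowest without ZT14 replicate 2. With the collection date as a replicate block 360 genes were rhythmic. Level calls without the block were 1887 for LPN cells against other clock neurons and 187 of 246 for the subsets. The cause of these shifts was not tested.

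Genes whose LPN UMIs lay mostly in 1 cell changed direction or peak. Dh31 swung by 1.18 in cells of at most 15000 UMIs and 0.99 without its highest cell, and by 1.21 to 6.30 without 1 library each. The ratio swing of CG33299 was 3.95 with DESeq2 and 4.68 without its highest cell, and 5.57 to 50.13 without 1 library each. That of CG4716 was 2.04 in cells of at most 15000 UMIs and 1.33 without its highest cell, and 1.42 to 6.04 without 1 library each. That of CG2016 was 0.93 with AstA at 100 per 10000, 0.77 with 4 clock gene UMIs in LPN cells and 0.95 without its highest cell, and 1.05 to 22.63 without 1 library each. The lowest of these ranges came without ZT06 replicate 2 for CG4716 and without ZT02 replicate 2 for the others. ZT02, ZT10 and ZT18 rest on 1 library each, and genes under 1 UMI per 10000 are the least certain.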

Other observations

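Cells with AstA at 50 or more per 10000 but without a kn UMI numbered 220 and lay outside the LPN rule. Median AstA was 244 per 10000 in LPN cells and 92.6 in these AstA cells without kn, at median depths of 11777 UMIs in LPN cells and 8363 in the cells without kn. Summed over cells, LPN cells held VGlut at 0.210 per 10000 and AstC at 183, while the AstA cells without kn held VGlut at 24.7 and AstC at 9.38. Sox102F stood at 3.55 in LPN cells and 0.405 in the cells without kn, and unc-4 at 1.89 in LPN cells and 0.113 in the cells without kn. cry stood at 0.530 in LPN cells and 2.07 in the cells without kn. Of the 220 cells, 162 had at least 4 UMIs of the 4 clock genes. kn stood at 6.07 per 10000 in LPN cells and 16.9 in the 730 kn cells below the AstA limit, of which 276 had at least 4 UMIs of the clock genes, and which held AstC at 3.62 and VGlut at 1.98. These are sums over cells of all libraries, with no test.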
